A study of Rattus norvegicus with 6 samples.

Results

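Monoamines such as dopamine, noradrenaline and serotonin are loaded into secretory vesicles, taken back up from outside the cell and broken down by a small set of proteins, and the 8 genes described here encode these carriers and oxidases. They are the vesicular transporters Slc18a1 and Slc18a2, the noradrenaline, dopamine and serotonin transporters Slc6a2, Slc6a3 and Slc6a4, the low-affinity organic cation transporter Slc22a3, and the monoamine oxidases Maoa and Maob. The members were chosen by gene symbol. All 8 of 8 were measured, among 14506 genes, each by 1 probe set whose values no other probe set repeated.

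RNA came from neurospheres, floating clusters that dissociated carotid body cells of adult rats formed over 10 days; the carotid body lies beside the carotid artery and senses blood oxygen. Of 6 Affymetrix arrays, 3 carry the label undifferentiated, for spheres kept in normoxia in complete neural crest medium with mitogens, namely FGF and EGF together with IGF-1 and ET-1, and 3 carry the label differentiated, for spheres kept in neural crest medium lacking mitogens at 3% oxygen. Mitogens and oxygen changed together and cannot be told apart, and each sphere preparation is a mixture of cell types. As described for the series, neuron-rich spheres were set against spheres rich in undifferentiated cells.

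In the carotid body, glomus cells make and release catecholamines. Vesicular monoamine transporters use a proton gradient to fill their granules, the Slc6 carriers recover released amine with sodium, and monoamine oxidases on the outer mitochondrial membrane turn cytosolic amine into an aldehyde. Slc18a1 is known mainly from neuroendocrine cells and Slc18a2 from monoamine neurons, mast cells and platelets as well as neuroendocrine cells.

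The label differentiated did not go with higher glomus markers. Tyrosine hydroxylase, Th, had a mean log2 value of 13.76 in the arrays labelled undifferentiated and 10.90 in those labelled differentiated. All 13 measured genes of a glomus cell list were lower in the latter, with a median change of -2.45. Of 13 hypoxia response genes, 10 fell in the arrays labelled for 3% oxygen, against 14.9% of all genes (limma adjusted p under 0.05). These values go against the labels. Whether labels were exchanged was not tested, and an exchange would turn every direction given here. The groups are therefore called by their labels, and every change below is the mean of the arrays labelled differentiated minus that of the arrays labelled undifferentiated, on the log2 scale of the deposited values.

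Both vesicular transporters fell and so did Maoa, while Slc6a4 and Maob rose, and Slc6a2, Slc6a3 and Slc22a3 did not pass the test. That is 3 members lower and 2 higher of 8 at a limma adjusted p under 0.05, where 29.5% of all genes were called in either direction, 14.9% lower and 14.7% higher. The 3 arrays of a group all lay on 1 side of the other group's in 6 members, 3 below and 3 above, where 42.3% of all genes had such groups, 19.8% below and 22.5% above. The median change over the 8 members was 0.06, the same to this precision as the 0.06 over all genes. It lies between the changes of Slc22a3 (0.025) and Slc6a2 (0.10), neither called, so it does not describe the members that moved. The mean level over the 8 members was 6.30 to 6.43 in the arrays labelled undifferentiated and 5.96 to 6.01 in those labelled differentiated.

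**Figure D1:**
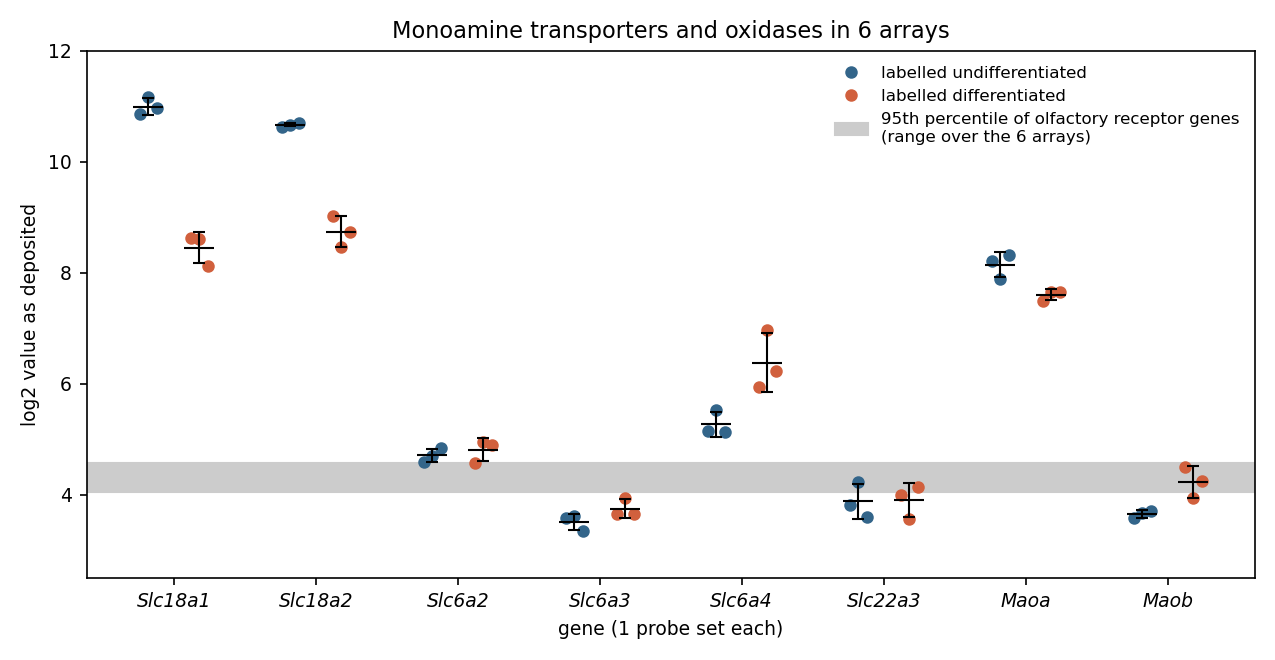
Deposited log2 value (vertical axis) of the 8 genes (horizontal axis) in each array, points, with the mean and SD of 3 arrays in black; the grey band spans the 95th percentile of 53 olfactory receptor genes, 4.06 to 4.58 over the 6 arrays. Slc18a1 and Slc18a2 lie far apart between the groups, Slc6a4 is higher and Maoa lower in the arrays labelled differentiated, and Slc6a3, Slc22a3 and Maob lie within or below the band.

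The vesicular transporters had the largest changes among the members. Slc18a1, also called VMAT1, read 10.85, 11.16 and 10.97 in the arrays labelled undifferentiated and 8.63, 8.60 and 8.13 in those labelled differentiated. The groups were separated by a gap of 2.22, several times the spread within either group. Slc18a1 fell by 2.54 ± 0.14 (SE), which is 5.82-fold, from 10.99 ± 0.16 to 8.45 ± 0.28 (SD, n = 3 each; limma adjusted p = 2.81e-07, 95% interval -2.86 to -2.22). Slc18a1 ranked 98 of 14506 genes by size of fall.

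Slc18a2, also called VMAT2, read 10.63, 10.67 and 10.70 in the arrays labelled undifferentiated, the tightest group of any member, and 9.02, 8.47 and 8.73 in those labelled differentiated. Slc18a2 fell by 1.93 ± 0.13 (SE), which is 3.80-fold, from 10.67 ± 0.032 to 8.74 ± 0.28 (SD, n = 3 each; limma adjusted p = 1.05e-06, 95% interval -2.22 to -1.64). It ranked 220 among all genes by size of fall. Even after the fall both probe sets stayed bright: Slc18a1 lay between the 89.2 and 92.3 percentile of its array's probe sets and Slc18a2 between the 91.5 and 94.3 percentile in the arrays labelled differentiated.

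Whether the vesicular transporters fell unequally was examined within arrays. Slc18a1 minus Slc18a2 was 0.22, 0.49 and 0.27 in the arrays labelled undifferentiated and -0.39, 0.13 and -0.60 in those labelled differentiated. These values did not overlap, and the difference between the group means was -0.61 ± 0.23 (SE), a larger fall for Slc18a1. The exact two-sided permutation p was 0.1, the smallest that 3 against 3 arrays allow, and 0.125 after Benjamini-Hochberg adjustment over the 5 pairs compared, so this test could not call the difference.

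The sequence before the start of Slc18a2 is shown because this gene changed strongly and because a cAMP response element, the letters TGACGTCA, lies close to its start. It is the RefSeq promoter of the GRCr8 assembly, chr1:268399771-268400020 on the plus strand, the 250 bases before the annotated start. Capitals mark 3 motifs searched on both strands: TGACGTCA, the core of hypoxia-inducible factor sites (ACGTG or GCGTG), and the GC box GGGCGG, read as CCGCCC on the other strand.
Slc18a2: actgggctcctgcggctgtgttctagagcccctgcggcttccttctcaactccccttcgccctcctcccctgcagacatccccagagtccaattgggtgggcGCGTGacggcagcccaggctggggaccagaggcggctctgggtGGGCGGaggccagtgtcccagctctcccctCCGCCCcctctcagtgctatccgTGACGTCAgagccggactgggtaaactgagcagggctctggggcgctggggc
TGACGTCA spans positions -52 to -45, where -1 is the base before the start, and 1.59% of 33469 promoter windows of this length hold it. The window also holds 1 core of the hypoxia type, present in 36.7% of all windows, and 2 GC boxes, present in 30.5%, and none of these matches overlaps another. A match is a description of letters only. RefSeq promoters were matched for 5 of the 8 members; none was printed for Slc18a1, Slc6a2 or Slc6a4.

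The fall of the vesicular transporters went with lower glomus cell transcripts. The mean log2 level of the glomus list ranged from 9.99 to 10.05 over the arrays labelled undifferentiated and from 7.28 to 7.67 over those labelled differentiated. Its smallest p-values belonged to Cox4i2, a cytochrome oxidase subunit, which fell by 3.50, and the background potassium channel Kcnk9, which fell by 2.71. In bulk RNA, fewer glomus cells and less transporter RNA per glomus cell cannot be told apart. The list of sympathetic neuron genes, which shares Dbh and Hand2 with the glomus list, also moved. Of its 12 genes 8 fell and 1 rose, against 14.9% and 14.7% of all genes. The list's mean level was 7.97 to 8.15 in the arrays labelled undifferentiated and 6.58 to 7.09 in those labelled differentiated. Its smallest p-values were those of the ubiquitin hydrolase Uchl1 and the vesicle fusion protein Snap25, which fell by 1.98 and 2.04. The part of either cell type in the transporter changes was not tested.

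Of the 3 Slc6 reuptake carriers, Slc6a4 rose and Slc6a2 and Slc6a3 did not pass. Slc6a2, which recovers noradrenaline and dopamine, read 4.60, 4.70 and 4.83 in the arrays labelled undifferentiated and 4.58, 4.95 and 4.89 in those labelled differentiated. The groups overlapped, and the lowest of all 6 values was in an array labelled differentiated. The difference was 0.10 ± 0.15 (SE, limma adjusted p = 0.68), with a 95% interval of -0.23 to 0.43. That interval does not reach the falls of Slc18a1 or Slc18a2. The Slc6a2 probe set was dim, however, at the 42.3 to 47.5 percentile of its arrays, so a fall of their size may not have been measurable.

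Slc6a3, the dopamine transporter, read 3.58, 3.61 and 3.34 in the arrays labelled undifferentiated and 3.65, 3.94 and 3.64 in those labelled differentiated. The groups did not overlap but were only 0.034 apart, and the difference of 0.23 ± 0.15 (SE, limma adjusted p = 0.312, 95% interval -0.11 to 0.57) did not pass. As a guide to dim values, 53 olfactory receptor genes were used, a family with little known expression outside the nose. Their 95th percentile was 4.06 to 4.26 in the arrays labelled undifferentiated and 4.33 to 4.58 in those labelled differentiated. This reference was thus itself higher in the latter, while the family's medians overlapped, at 2.20 to 2.40 and 2.30 to 2.59. All 6 values of Slc6a3 lay below the 95th percentile of their own array, so a change in its RNA may not have been measurable here.

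Slc6a4, the serotonin transporter, was the member with the largest rise. It read 5.15, 5.52 and 5.13 in the arrays labelled undifferentiated and 5.94, 6.98 and 6.22 in those labelled differentiated. All 6 values lay above the olfactory receptor percentile, the groups were 0.42 apart, and differentiated replicate 2 stood highest. Slc6a4 rose by 1.11 ± 0.23 (SE), a 2.16-fold difference, from 5.27 ± 0.22 to 6.38 ± 0.53 (SD, n = 3 each; limma adjusted p = 0.00339, 95% interval 0.61 to 1.62), and ranked 329 among all genes by size of rise. It still passed without differentiated replicate 2, at 0.82 (limma adjusted p = 0.00314), but not in an unmoderated test (adjusted p = 0.103).

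Tph1 fell in the same arrays. This enzyme, which sets the rate of serotonin production outside the brain and is named here after its value was seen, had values of 10.49, 9.88 and 9.92 in the arrays labelled undifferentiated and 4.93, 6.40 and 5.28 in those labelled differentiated. The change was -4.56 ± 0.31 (SE, limma adjusted p = 1.04e-06). Tph2, the hydroxylase of brain serotonin neurons, did not pass, at -0.13 (limma adjusted p = 0.617), and lay below the olfactory receptor percentile in all 6 arrays. Differentiated replicate 2 was the highest of its group for Tph1 as for Slc6a4, but this was not particular to these genes. The mean of the monoamine synthesis list, which includes Tph1, was 6.56 in that array against 5.88 and 6.05. The glomus list's mean was 7.67 there against 7.28 and 7.32. Among the members, Slc18a2, Slc22a3 and Maob were lowest of their group in that array, at 8.47, 3.56 and 3.93. Slc6a2 and Slc6a3 were highest of their group there, as Slc6a4 was, at 4.95 and 3.94.

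Mast cells and platelets are known elsewhere for the serotonin transporter. Many of their genes were dim here: 9 of 11 mast cell genes and 3 of 6 platelet and erythroid genes lay below the olfactory receptor percentile in every array, so a change in them may not have been measurable. Of 11 mast cell genes 0 passed in limma in either direction, with 1 at an unadjusted p under 0.05, and 0 passed in the unmoderated test, with 2 at an unadjusted p under 0.05. The list's mean level was 3.06 to 3.09 in the arrays labelled undifferentiated and 3.16 to 3.19 in those labelled differentiated. The olfactory receptor percentile was also higher in the latter. The mast cell carboxypeptidase Cpa3 averaged 2.03 and 2.26. Of 6 platelet and erythroid genes 0 passed in limma or in the unmoderated test, and 0 were at an unadjusted p under 0.05 in either. Their mean level was 4.49 to 4.69 against 4.47 to 4.84. The macrophage list was highest in the array with the most Slc6a4, at 7.53 in differentiated replicate 2 against 6.82 and 6.73 in the other two. It overlapped between the groups, being 6.61 to 7.14 in the arrays labelled undifferentiated, and its part in the Slc6a4 values was not tested.

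Slc6a4 was also set against both catecholamine carriers within arrays, although Slc6a3 was too dim for its side to be read firmly. Slc6a2 minus Slc6a4 went from a mean of -0.56 to -1.57, a difference of -1.01 ± 0.27 (SE), and Slc6a3 minus Slc6a4 from -1.75 to -2.64, a difference of -0.88 ± 0.24. Neither pair's groups overlapped, and each had the smallest exact permutation p that 3 against 3 arrays allow, 0.1, or 0.125 adjusted over 5 pairs. Slc6a2 minus Slc6a3 differed by -0.13 ± 0.18 with overlapping groups (exact permutation p = 0.5, also 0.5 adjusted), and was 0.013 without undifferentiated replicate 3.

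**Figure D2:**
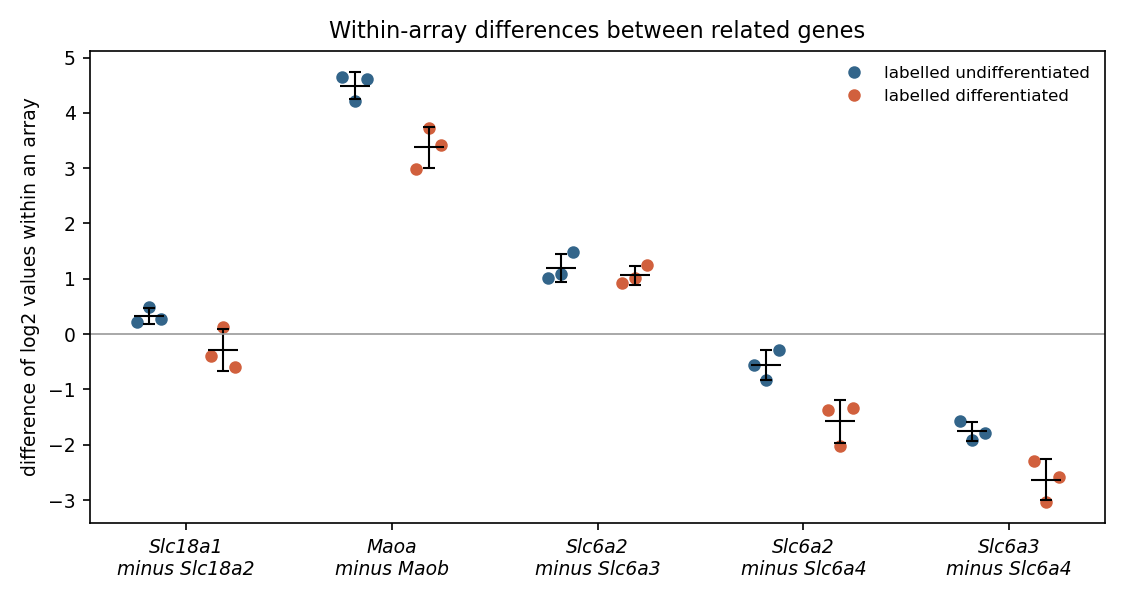
Difference of the log2 values of paired genes (horizontal axis) within each array (vertical axis, log2), points, with the mean and SD of 3 arrays in black. The groups overlap for Slc6a2 minus Slc6a3 and for none of the other 4 pairs; the height of a pair shows probe brightness and not relative amount, so only the shift between groups is read.

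Slc22a3, which carries monoamines at low affinity in non-neuronal cells, read 3.81, 4.23 and 3.60 in the arrays labelled undifferentiated and 4.001, 3.56 and 4.14 in those labelled differentiated. The values were intermixed, and all 6 lay below the olfactory receptor percentile of their array. The difference was 0.025 ± 0.20 (SE, limma adjusted p = 0.947, 95% interval -0.42 to 0.47), and its sign changed with the normalization.

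The monoamine oxidases moved in opposite directions and by less than the vesicular transporters. Maoa, which prefers serotonin and noradrenaline, read 8.22, 7.89 and 8.32 in the arrays labelled undifferentiated and 7.49, 7.66 and 7.66 in those labelled differentiated. The groups were 0.23 apart. Maoa fell by 0.54 ± 0.12 (SE), a 1.46-fold difference, from 8.14 ± 0.23 to 7.60 ± 0.097 (SD, n = 3 each; limma adjusted p = 0.00588, 95% interval -0.81 to -0.27). It passed when each array was left out, with the adjusted p at 0.00161 to 0.0317, but not in an unmoderated test (adjusted p = 0.077).

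Maob, which prefers phenylethylamine, read 3.57, 3.68 and 3.71 in the arrays labelled undifferentiated and 4.50, 3.93 and 4.24 in those labelled differentiated. The groups were 0.22 apart, but of the 6 values only that of differentiated replicate 1 lay above the olfactory receptor percentile of its array. That percentile was itself higher in the arrays labelled differentiated, and its part in the Maob difference was not tested. Maob rose by 0.57 ± 0.17 (SE), a 1.49-fold difference, from 3.65 ± 0.071 to 4.22 ± 0.29 (SD, n = 3 each; limma adjusted p = 0.0231, 95% interval 0.20 to 0.94). The call was lost on leaving out any of 5 of the 6 arrays, with adjusted p-values of 0.0535 to 0.0908, and held only without differentiated replicate 2 (0.72, limma adjusted p = 0.0061). It was also lost in the unmoderated test (adjusted p = 0.102).

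Maoa minus Maob was 4.65, 4.21 and 4.62 in the arrays labelled undifferentiated and 2.99, 3.73 and 3.42 in those labelled differentiated. The groups did not overlap, and the shift was -1.12 ± 0.26 (SE), with an exact permutation p of 0.1 and 0.125 after adjustment. Since Maob was dim, the size of this shift is uncertain, and it was -0.92 without differentiated replicate 1.

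The windows before both oxidase genes, which are neighbours on the X chromosome, are shown because the genes share a function and changed in opposite directions. They are RefSeq promoters of GRCr8, chrX:8681373-8681622 on the minus strand for Maoa and chrX:8490155-8490404 on the plus strand for Maob, each the 250 bases before the start with the same 3 motifs in capitals.
Maoa: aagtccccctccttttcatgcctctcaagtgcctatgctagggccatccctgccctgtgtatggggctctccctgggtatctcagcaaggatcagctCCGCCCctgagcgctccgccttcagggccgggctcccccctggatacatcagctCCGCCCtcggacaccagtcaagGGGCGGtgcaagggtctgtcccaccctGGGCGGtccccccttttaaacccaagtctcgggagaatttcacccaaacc
Maob: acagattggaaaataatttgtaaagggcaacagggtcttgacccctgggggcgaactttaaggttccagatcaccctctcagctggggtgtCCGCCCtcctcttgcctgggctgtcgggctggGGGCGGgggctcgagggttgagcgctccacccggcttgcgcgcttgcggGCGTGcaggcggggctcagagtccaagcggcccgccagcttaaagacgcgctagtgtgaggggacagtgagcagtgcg
Maoa has 4 GC boxes and Maob has 2, between positions -153 and -45 in Maoa and between -159 and -122 in Maob. The Maob window also has GCGTG at -78 to -74, and the Maoa window has no match to that core. TGACGTCA is in neither. The GC content was 62.4% for Maoa and 63.6% for Maob.

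Genes around the members were read in 3 lists: monoamine synthesis, other carriers, and other breakdown and conjugation. The carrier list also holds relatives that carry amino acids or acetylcholine, so the lists together are wider than monoamine handling. Of 39 measured genes of 48 named, 3 rose and 13 fell, with a median change of -0.016. Over all genes 14.7% rose and 14.9% fell (limma adjusted p under 0.05). Synthesis accounted for most of the falls: of 11 measured genes 7 fell and 1 rose, with a median of -1.91. Gch1, which makes the tetrahydrobiopterin cofactor of tyrosine hydroxylase, fell by 3.23, Ddc, which makes dopamine and serotonin from their amino acid precursors, by 3.25, and Qdpr, which recycles the cofactor, fell by 1.91. Gchfr, which encodes the feedback regulator of the Gch1 enzyme, rose by 0.51. Th fell by 2.86 and Dbh, which makes noradrenaline, by 4.65, both named after their values were seen.

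**Figure D3:**
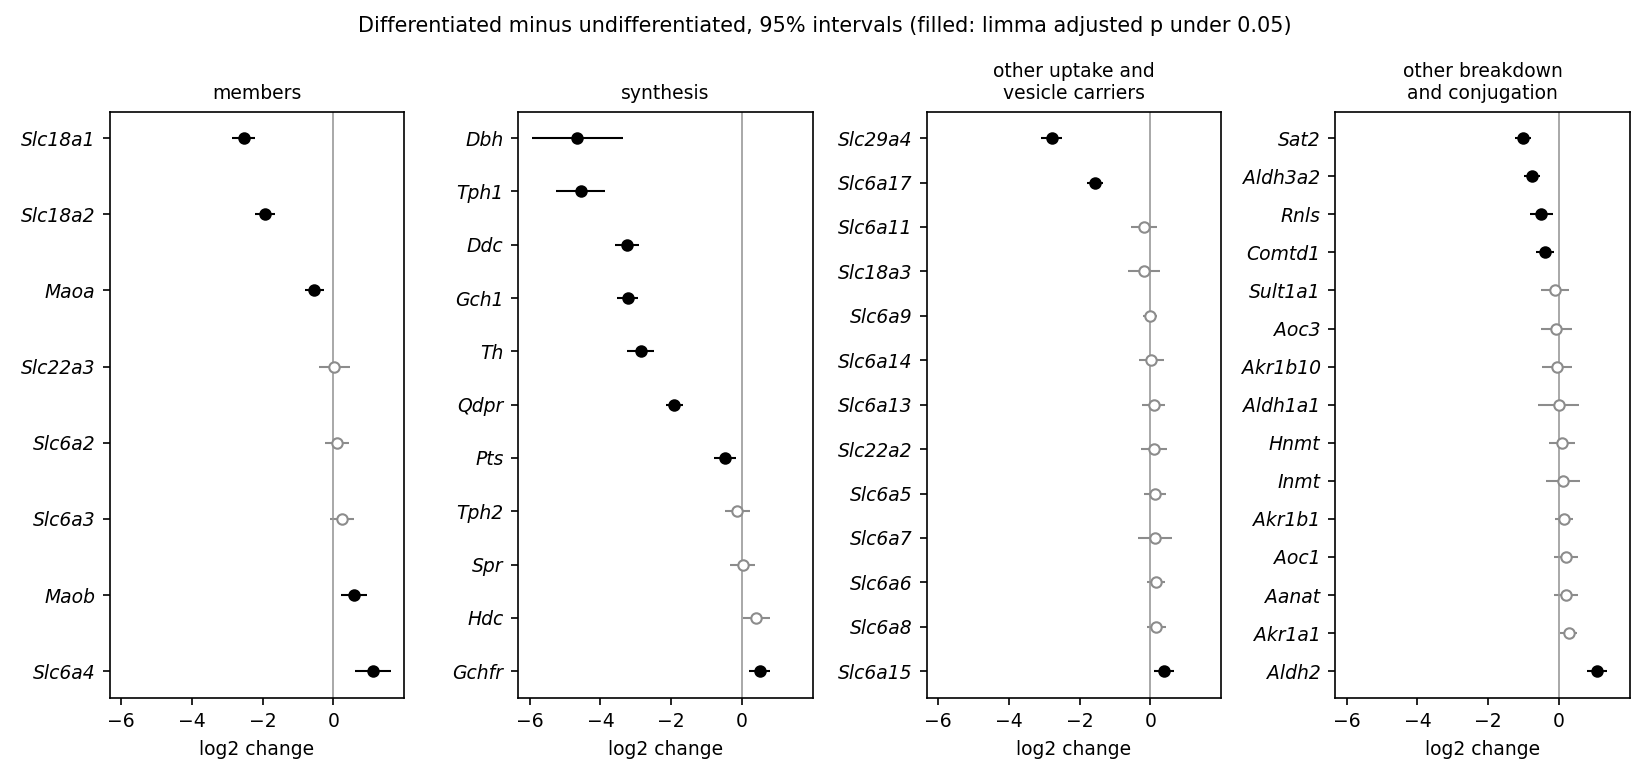
Log2 change, differentiated minus undifferentiated (horizontal axis), for the 8 members and the 3 lists of synthesis, carrier and breakdown genes (vertical axis). Bars are 95% intervals from the fit of 3 against 3 arrays. Filled points passed limma at an adjusted p under 0.05. The carrier list includes relatives that carry amino acids or acetylcholine. The synthesis panel reaches -4.65 for Dbh, and in the other uptake panel Slc29a4 stands apart at -2.79.

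Among other carriers the plasma membrane monoamine transporter Slc29a4 had a larger fall than any of the 8 members, a difference that was not tested. It read 8.72, 8.89 and 8.69 in the arrays labelled undifferentiated and 5.74, 6.26 and 5.94 in those labelled differentiated, with a gap of 2.43 between the groups. Slc29a4 fell by 2.79 ± 0.13 (SE), which is 6.91-fold (limma adjusted p = 1.09e-07). Slc6a17, a vesicular carrier of neutral amino acids, fell by 1.57, and Slc6a15, a neutral amino acid carrier, rose by 0.38 (adjusted p = 0.0477). Of the 13 measured carriers 3 passed, against 29.5% of all genes, and the other 10 did not. Among the latter was the vesicular acetylcholine transporter Slc18a3, a relative of the vesicular monoamine transporters, at -0.18 ± 0.20 (limma adjusted p = 0.582). It was named after its value was seen.

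Of 15 measured genes of other breakdown and conjugation, 4 fell and 1 rose, with a median of -0.0067. That count lies near the share over all genes, of which 29.5% were called. Aldh2, the mitochondrial dehydrogenase that oxidises the aldehydes left by monoamine oxidase, read 7.78, 7.43 and 7.61 in the arrays labelled undifferentiated and 8.87, 8.46 and 8.68 in those labelled differentiated. It rose by 1.07 ± 0.13 (SE, limma adjusted p = 8.34e-05). Of the oxidases that act before it, Maoa fell and the dim Maob rose. Aldh3a2, a fatty aldehyde dehydrogenase, fell by 0.76, Sat2, an acetyltransferase, by 1.02, and Rnls, renalase, by 0.50.

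The remaining marker lists are read against the 29.5% of all genes called. Of 12 mesenchymal and fibroblast genes 11 rose and 1 fell, the smallest p-values being those of Prrx1 at 1.77 and Pdgfra at 1.46, and the list's mean level was 9.36 to 9.66 in the arrays labelled undifferentiated and 10.51 to 10.61 in those labelled differentiated. Of 9 glial genes 2 rose and 1 fell, with Mbp at -1.97 and Foxd3 at 0.35. Smooth muscle and pericyte markers were divided, with 4 of 10 higher and 3 lower, Rgs5 at -2.28 and Acta2 at 0.97. Of 9 endothelial genes 1 rose and 2 fell, with Cldn5 at -2.31 and Erg at 0.96. Of 11 macrophage genes 2 rose and 1 fell, with Cd14 at 0.68 and Tyrobp at 1.24. The glial, endothelial and macrophage counts lie near the share over all genes. The smallest p-values of the mast cell list were those of Hdc at 0.41 and Cpa3 at 0.23, and those of the platelet and erythroid list were Pf4 at -0.37 and Gp9 at 0.24, none past the threshold. The hypoxia response list, in which 1 gene rose beside the 10 that fell, had a mean level of 9.53 to 9.77 against 8.17 to 8.59, with Adm at -3.88 and Ndrg1 at -2.35.

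**Figure D4:**
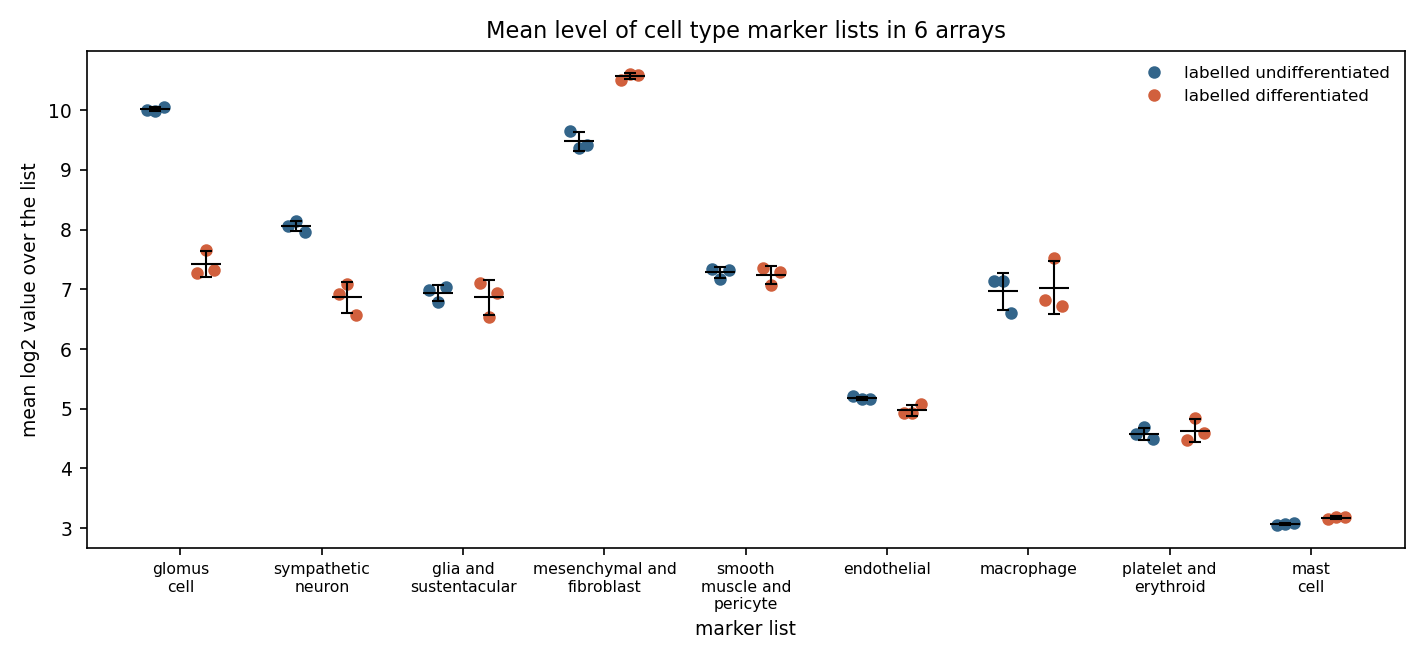
Mean log2 value over each marker list (vertical axis) in each array, points, by list (horizontal axis), with the mean and SD of 3 arrays in black. The groups lie apart for the glomus, sympathetic neuron and mesenchymal lists, narrowly apart for the endothelial and mast cell lists, and overlap for the other 4 lists plotted.

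Genes with profiles most like those of the called members were found by the root mean square distance between centred log2 profiles over the 6 arrays. With samples in 2 groups, this mostly matches the size of the change. Nearest to Slc18a1 were Tspan13, a tetraspanin, at 0.087, the cation channel Trpc5 at 0.092 and Scg2, a granin of dense-core granules, at 0.10. Nearest to Slc18a2 were the calcium sensor Ncald at 0.089, the heparan sulfate sulfotransferase Hs3st2 at 0.09 and the adenylyl cyclase Adcy1 at 0.105. Slc18a1 and Slc18a2 were 0.386 apart from each other.

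The genes nearest to Slc6a4 were less close: Slc16a14, a carrier of the monocarboxylate transporter family, at 0.163, the chloride channel Cftr at 0.17 and the ephrin receptor Epha3 at 0.171. Cftr was dim: its group means of 3.06 and 3.91 lay below the olfactory receptor percentile of 4.06 to 4.58. The genes nearest to Maoa were Homer2 at 0.043, Vkorc1 at 0.052 and Ggact at 0.061. For Maob they were Nell2 at 0.026, the adhesion molecule Ncam2 at 0.079 and Frmd6 at 0.079. Scg2, of the glomus list, was the only 1 of these 15 genes that belonged to a list used here.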

How the data were processed

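RNA of 6 neurosphere samples (100 ng each) was labelled with biotin as cRNA for Affymetrix arrays, per the labels' protocols. The authors deposited a table of log2 values for 29214 probe sets on each array; the log2 scale was inferred from their range, and background correction, normalization and software were not given in the sources used here. Of these, 15310 carried exactly 1 gene symbol in the platform's probe table, and the probe set of highest mean stood for each of 14506 genes. Groups came from sample titles, which do not say whether arrays came from separate cultures, so the p-values rest on a spread between arrays that may be technical; 3 arrays a group limit the precision.

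All genes were fitted together in limma 3.58.1 (R 4.3.3; lmFit, eBayes with trend, two-sided, Benjamini-Hochberg over all genes, threshold 0.05), a procedure tested on simulated data. Paralog pairs were compared by exact permutation. Members and lists were chosen with earlier results of these data known. Named genes were all members, up to 3 per direction of each monoamine list, 2 per marker list by p, and 3 nearest profiles per called member; others are marked. The block by replicate number, 2 normalizations, a filter on genes at or below the 40th percentile, other probe set rules, variance models and array weights, and leaving out each array were alternatives. Figures used matplotlib 3.10.9 in Python 3.11.15.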

Additional observations from a re-analysis of the deposited data

How the results depend on the processing

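Slc18a1, Slc18a2, Slc6a4 and Maoa kept their direction under all 17 alternatives, and Slc18a1 and Slc18a2 also their call. In the unmoderated test Slc6a4 (1.11), Maoa (-0.54) and Maob (0.57) no longer passed, 2740 genes were called in place of 4286, and 0 members were called higher after adjustment, although 2 were at an unadjusted p under 0.05 in that test and in limma. With dim genes left out, which removes Slc6a3, Slc22a3 and Maob, 1 member was called higher. The Slc22a3 difference was -0.040 with quantile normalization and -0.0045 with median centring; the cause was not tested.

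When each array was left out, the change was -0.12 to 0.20 for Slc22a3 and 0.43 to 0.72 for Maob. For Slc6a2 minus Slc6a3 it was -0.23 to 0.013. In these fits 1 to 2 members were called higher and 3 in every case lower. Of the synthesis, carrier and breakdown lists together, 1 to 3 genes were called higher. Of the latter, 1 was called without undifferentiated replicate 1 and without undifferentiated replicate 3. Whether replicate numbers pair the arrays was not settled. Deviations of same-numbered arrays correlated at 0.115, 0.124 and -0.0038 over 14506 genes, and those of differently numbered arrays at -0.15 to 0.062. Replicates 1 and 2 thus lay above all differently numbered pairs, and replicate 3 lay among them. With the replicate number as a block, 4430 genes were called, and no member's call changed (Slc18a1 -2.54, Slc18a2 -1.93, Slc6a4 1.11, Maoa -0.54, Maob 0.57). Each member has 1 probe set, so other probe set rules left its values the same. The files give no background level, which limits the dim Slc6a3, Slc22a3 and Maob most.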
